A study of Mus musculus with 4 samples.

Results

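The 26S proteasome is the cell's main machine for the controlled breakdown of proteins, and its constitutive genes were followed here across the cell types, genotypes and sexes of a single-cell data set of mouse cortex. The genes were all those whose symbol starts with Psma, Psmb, Psmc or Psmd and a digit. Psmb8, Psmb9 and Psmb10, which code for the interferon-inducible catalytic subunits, and pseudogenes were left out. The rule found 37 of the 27487 genes listed in the 4 libraries together. All 37 were listed in both Tg2576 libraries and 36 in both wild-type libraries, where Psmb11 was missing. They lie on 16 chromosomes, with 7 of them on chromosome 11. A few are not constitutive subunits of the general proteasome. Psma8 is best known from testis and Psmb11 from thymus, Psmc3ip codes for a partner of Psmc3 that is no subunit, and Psmd5, Psmd9 and Psmd10 code for chaperones that help to build the 19S particle.

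The 4 groups were female wild-type, female Tg2576, male wild-type and male Tg2576 mice, all aged 24 weeks, with a single Drop-seq library each from the pooled cortex of 9 mice. Tg2576 mice (B6;SJL-Tg(APPSWE)2576Kha) carry a human amyloid precursor protein gene with the Swedish mutation. They were heterozygous here, and the wild-type mice were littermates of the same background. The transgene is driven by prion protein gene sequences, so that it is not restricted to one cell type of the brain. Each library is a pool, so that no value of a single animal exists, and every sex and genotype has n = 1 library. The cells came from enzymatic dissociation of perfused cortex.

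The proteasome consists of a barrel, the 20S core, and a cap, the 19S regulatory particle. The core is built of outer rings of alpha subunits (Psma genes) and inner rings of beta subunits (Psmb genes), of which Psmb6, Psmb7 and Psmb5 carry the caspase-like, trypsin-like and chymotrypsin-like activities. In the cap, a ring of ATPases (Psmc genes) unfolds the substrate, and other subunits (Psmd genes) bind ubiquitin chains, remove them or form the lid. Under interferon, Psmb8, Psmb9 and Psmb10 can take the places of Psmb5, Psmb6 and Psmb7 in newly built cores, which are then called immunoproteasomes.

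Promoter sequence is shown for 3 core genes whose levels differed between cell types, the catalytic Psmb5 and the ring members Psma2 and Psmb3. Each run holds the 120 bases before the annotated start (RefSeq, GRCm38.p6, the assembly also named mm10), 5′ to 3′ on the gene's strand. Capitals mark each match, on either strand, to TGACNNNGC, the core of the antioxidant response element that the factors NRF1 and NRF2 (Nfe2l1 and Nfe2l2) are known to bind, or to CCAAT, the motif of the factor NF-Y. The letters of these motifs did not overlap in the runs shown. The Psmb5 run is at chr14:54617996-54618115 on the minus strand. The Psma2 run is at chr13:14613122-14613241 and the Psmb3 run at chr11:97703314-97703433, both on the plus strand.
Psmb5: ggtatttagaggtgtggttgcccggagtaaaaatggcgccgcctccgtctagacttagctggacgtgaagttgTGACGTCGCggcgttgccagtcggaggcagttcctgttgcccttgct
Psma2: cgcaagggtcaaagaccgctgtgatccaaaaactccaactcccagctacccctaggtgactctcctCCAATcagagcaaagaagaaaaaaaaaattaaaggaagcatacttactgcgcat
Psmb3: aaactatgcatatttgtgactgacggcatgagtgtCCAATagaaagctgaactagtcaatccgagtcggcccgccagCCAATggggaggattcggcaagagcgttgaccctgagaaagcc

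The RefSeq promoter table held 32 windows of 30 of the 37 genes. Within the 250 bases before the starts that table uses, TGACNNNGC was found in 5 of the 32 windows, those of Psmb5, Psmb6, Psmc6, Psmd9 and Psmd12. That is 15.6%, beside 10.2% of all 32851 promoter windows. CCAAT was found in 13 of the 32 windows (40.6%), beside 33.8% of all windows. Both shares describe letters in these windows and do not show binding.

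The libraries held between 1926857 and 2294296 UMIs (unique molecular identifiers, each counting a captured RNA molecule) in 3000 barcodes each. After the filters 4835 cells remained, 1010 to 1532 per library, with a median of 909 to 1331.5 UMIs per cell and 2 to 4 barcodes shared by a pair of libraries. Microglia, astrocytes, oligodendrocytes, endothelial cells and mural cells, named from marker genes, had at least 20 cells and 20000 UMIs in every library and were tested. In each of them the summed level of its own markers was above that of the other 4 types' markers in all 4 libraries, in CPM (a gene's UMIs scaled to a total of 1000000 UMIs in that cell type and library). The separation was weakest in mural cells, which held endothelial markers at 4798 to 12638 CPM beside 14937 to 23766 CPM of mural markers. The female wild-type endothelial sum held 10147 CPM of erythrocyte markers, against 2.38 to 23.7 CPM in the other endothelial sums. The part of either in the results was not tested.

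Over all kept cells, the members differed widely in level. Drop-seq counts molecules at their 3′ ends, so that levels of different genes can be set side by side without a correction for length. Psma7, an alpha ring subunit, was the highest member, at 320 and 458 CPM in wild-type and Tg2576 females and 424 and 450.4 CPM in wild-type and Tg2576 males. Its lowest library lay above the highest library of any other member. The next members were Psmb1 (215 ± 40.9 CPM, SD, n = 4 libraries), Psmc1 (213.5 ± 25.5 CPM), Psmc3 (178 ± 13.7 CPM) and Psma2 (162 ± 32.4 CPM), beside 413 ± 63.7 CPM for Psma7. Psmb1 is a beta ring subunit without catalytic activity, Psmc1 and Psmc3 are ATPases of the 19S base, and Psma2 belongs to the alpha ring. These 5 genes gave 30.7% of the members' UMIs.

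At the other end, the 5 lowest members were the chaperones Psmd5 (29.1 ± 6.08 CPM) and Psmd9 (28.2 ± 5.52 CPM), then Psma8 (11.1 ± 4.95 CPM), Psmc3ip (7.34 ± 3.08 CPM) and Psmb11. Psmb11 had 0.909 ± 1.19 CPM, from 4 UMIs in the kept cells of the female Tg2576 library, 2 in the male Tg2576 library and 0 in both wild-type libraries. Without Psma8, Psmc3ip and Psmb11, the highest level was 14.6 times the lowest. The catalytic subunits were not among the most abundant, with 146 ± 32.0 CPM for Psmb6, 78.4 ± 13.2 CPM for Psmb7 and 51.2 ± 11.4 CPM for Psmb5. The 6 ATPases had a median level of 115 CPM, the 4 beta subunits without catalytic activity 117 CPM, the 8 lid subunits 86.6 CPM and the 3 chaperones of the 19S particle 29.1 CPM.

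**Figure D1:**
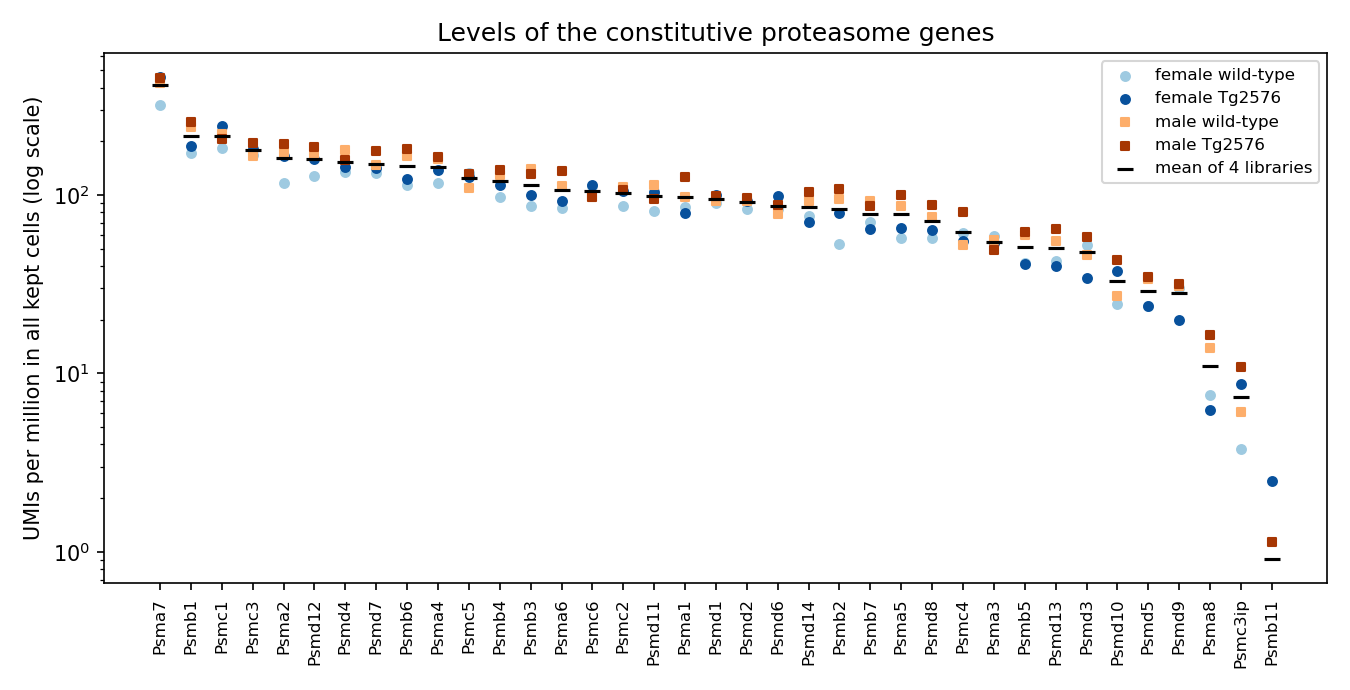
CPM (log axis) in all kept cells for each of the 37 genes, ordered by the mean of the 4 libraries (black bars), with a point for each library above 0. Psma7 lies above all other members, and the levels fall off after Psmd9 to Psma8, Psmc3ip and Psmb11.

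The order of the members was similar in every cell type. Across the 37 genes, Spearman's rho between the mean levels in a pair of cell types lay between 0.887 (astrocytes and mural cells) and 0.943 (microglia and endothelial cells). These are correlations across genes, which are not independent replicates, and the cell types share their libraries. The range of a member's log2 differences over the 5 types had a median of 0.84 among the 35 members tested, beside 2.64 among all 8222 genes tested. The inducible catalytic genes, in contrast, had a median range of 5.70.

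Each cell type was compared with the mean of the 4 others by edgeR's quasi-likelihood test on sums per library and type, with the library as a block. Of the 37 members, 35 passed the filter on low counts, all but Psmb11 and Psmc3ip. The test called 29 differences with an adjusted p under 0.05, in 18 of the 35 members, and 17 members were called in no cell type. The share of all genes called in any type is not given here, so that these counts do not set the members apart. The p-values set each difference against how far the differences between types vary over 4 libraries, estimated over all 5 types together. These libraries differ in sex and genotype. In microglia 0 members were called higher and 11 lower, while 32.4% of all genes tested were called higher and 25.9% lower there. In astrocytes 6 were higher and 1 lower (all genes 28.1% and 21.6%), and in oligodendrocytes 5 higher and 0 lower (20.4% and 19%). In endothelial cells 5 were higher and 0 lower (24.7% and 15.1%), and in mural cells 0 higher and 1 lower (14% and 9.19%). Only the lower calls in microglia were a larger share of the members than of all genes, and by a small margin. Their number ranged from 5 to 23 over 16 alternative settings. Where 0 were called, the members at an unadjusted p under 0.05 were 0 higher in microglia, 2 lower in oligodendrocytes, 1 lower in endothelial cells and 0 higher in mural cells, and DESeq2 called 0, 0, 1 and 0 of them.

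**Figure D2:**
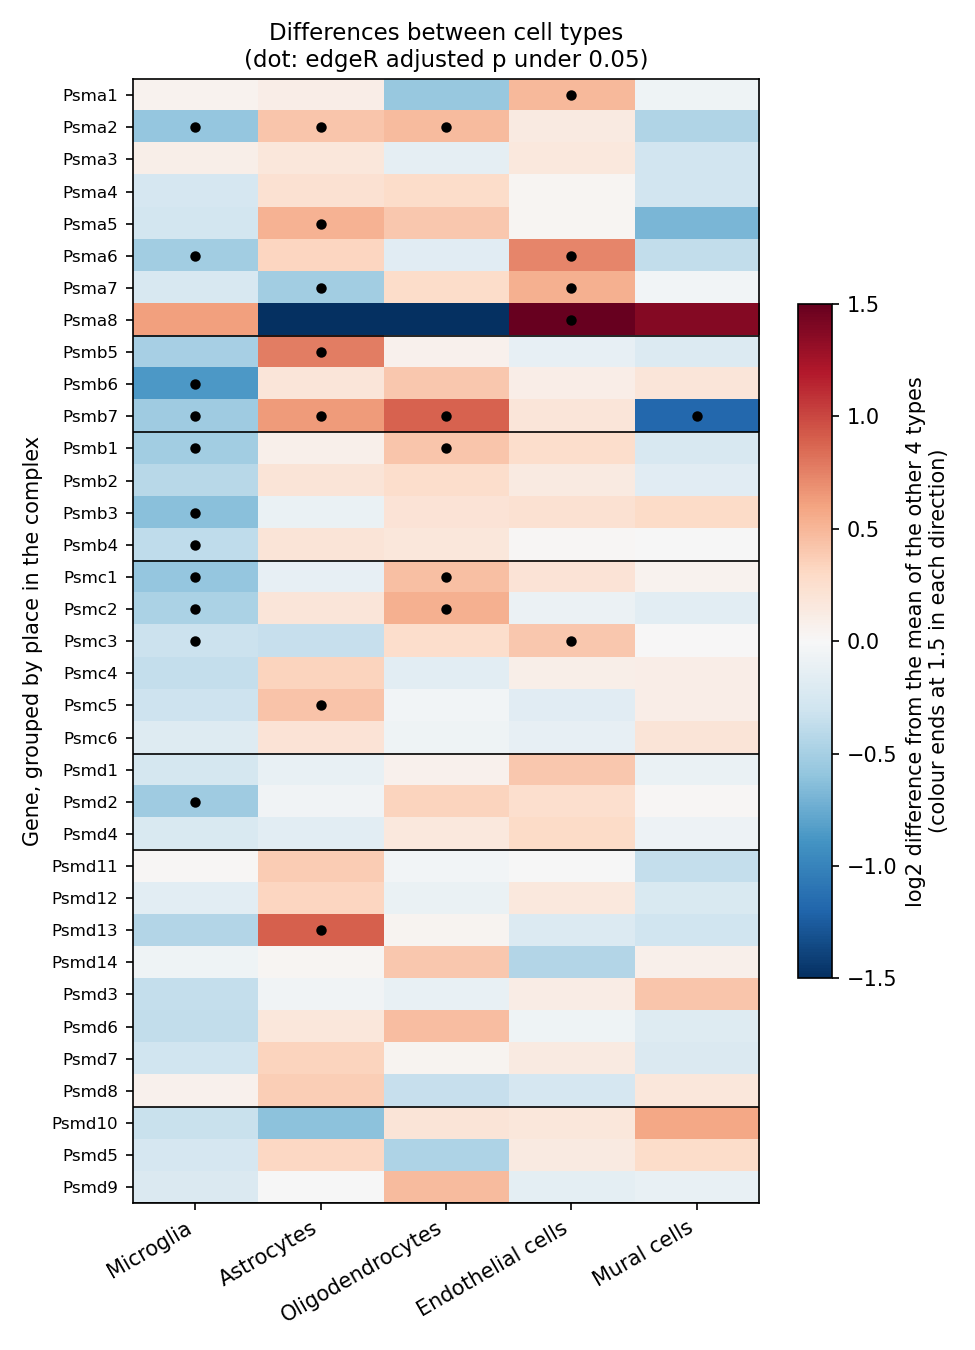
Log2 difference of each of the 35 tested members (vertical axis, grouped by place in the complex) between a cell type (horizontal axis) and the mean of the 4 others, as colour, with black dots at an edgeR adjusted p under 0.05. The microglia column is mostly blue and holds 11 dots, all in blue fields.

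Microglia, the brain's resident macrophages, had the lowest summed level of the members among the 5 tested types. It was 2708 and 3027 CPM in wild-type and Tg2576 females and 3066 and 3171 CPM in wild-type and Tg2576 males. In the same order, astrocytes had 3431, 3887, 3499 and 4492 CPM, oligodendrocytes 3724, 3894, 4043 and 5098 CPM, endothelial cells 3815, 4689, 4819 and 5249 CPM and mural cells 3513, 3598, 4726 and 6075 CPM. Among these 5 types microglia were thus lowest within each of the 4 libraries, by a log2 difference from the mean of the other types of -0.51 ± 0.15 (SD, n = 4 libraries), or -0.35 with totals scaled by TMM (trimmed mean of M-values). Endothelial cells were above astrocytes in each library, and their order relative to oligodendrocytes and mural cells was less regular.

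The median log2 difference of the 35 members in microglia was -0.32, beside -0.01 for all genes tested. It was negative for 30 members and positive for 5. By place in the complex, 2 of the 8 alpha ring genes, 5 of the 7 beta ring genes, 3 of the 6 ATPases and 1 of the other 19S subunits were called lower. All 7 beta ring genes and all 6 ATPases had negative values, also with library size alone or with RLE (relative log expression) factors. With library size alone the median of all genes in microglia was itself -0.16 and 23 members were called lower.

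Psmb6, the subunit with caspase-like activity, showed the most negative microglial difference. Its level in microglia was 79.1 and 89.4 CPM in wild-type and Tg2576 females and 88.4 and 98.5 CPM in wild-type and Tg2576 males. In the other 4 types it was 111 CPM or more in every library, so that the groups did not overlap. The log2 difference was -0.86 ± 0.15 (SE; adjusted p = 1.26e-07, edgeR), and it lay between -1.03 and -0.73 in 16 alternative settings. An annotated pseudogene, Psmb6-ps2, held 282 UMIs of its own in all barcodes, and reads that it shares with Psmb6 could have been counted for either.

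Psmb3, a beta subunit without catalytic activity, had 58.2 and 61.9 CPM in the microglia of wild-type and Tg2576 females and 113 and 85.1 CPM in those of males (log2 difference -0.62 ± 0.17, adjusted p = 6.00e-04, edgeR). These values overlap those of other types, such as 62.4 CPM in male wild-type oligodendrocytes. Psma2, of the alpha ring, had 76.1, 129, 107 and 127 CPM in the same order (-0.58 ± 0.15, adjusted p = 3.40e-04) and 112 CPM or more in all other sums, with some overlap. Psmc1, Psmd2, Psmb7, Psmb1, Psma6, Psmc2, Psmb4 and Psmc3 were the others called lower, with log2 differences from -0.58 (Psmc1) to -0.32 (Psmc3). Psmb5 had -0.50 ± 0.24 and did not pass (adjusted p = 0.0660, edgeR). Without the male Tg2576 library, 6 members were called lower in microglia.

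The microglia fell into clusters of 1175 and 683 cells, which were drawn without the proteasome genes. The larger was led by Ccl4, Il1a and Ccl3, genes of inflammatory signals, and the smaller by P2ry6, Sla and Lst1. The summed level of the members was 2644, 2709, 2948 and 3039 CPM in the larger cluster and 2867, 3347, 3689 and 3629 CPM in the smaller one, females before males and wild-type before Tg2576. It was lower in the larger cluster within each library, which is given without a test. In the male wild-type library the smaller cluster, at 3689 CPM, was above the 3499 CPM of astrocytes. In the other libraries both clusters were below the other tested types. Genes that respond to handling of tissue moved with the cell type. A list of 10 dissociation stress genes, such as Fos and Atf3, summed to 21751 to 32561 CPM in microglia and 737 to 1661 CPM in astrocytes, with all 10 called higher in microglia (Atf3 4.03, edgeR) and all 10 called lower in astrocytes (Fos -3.61). Their part in the members' levels was not tested.

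**Figure D3:**
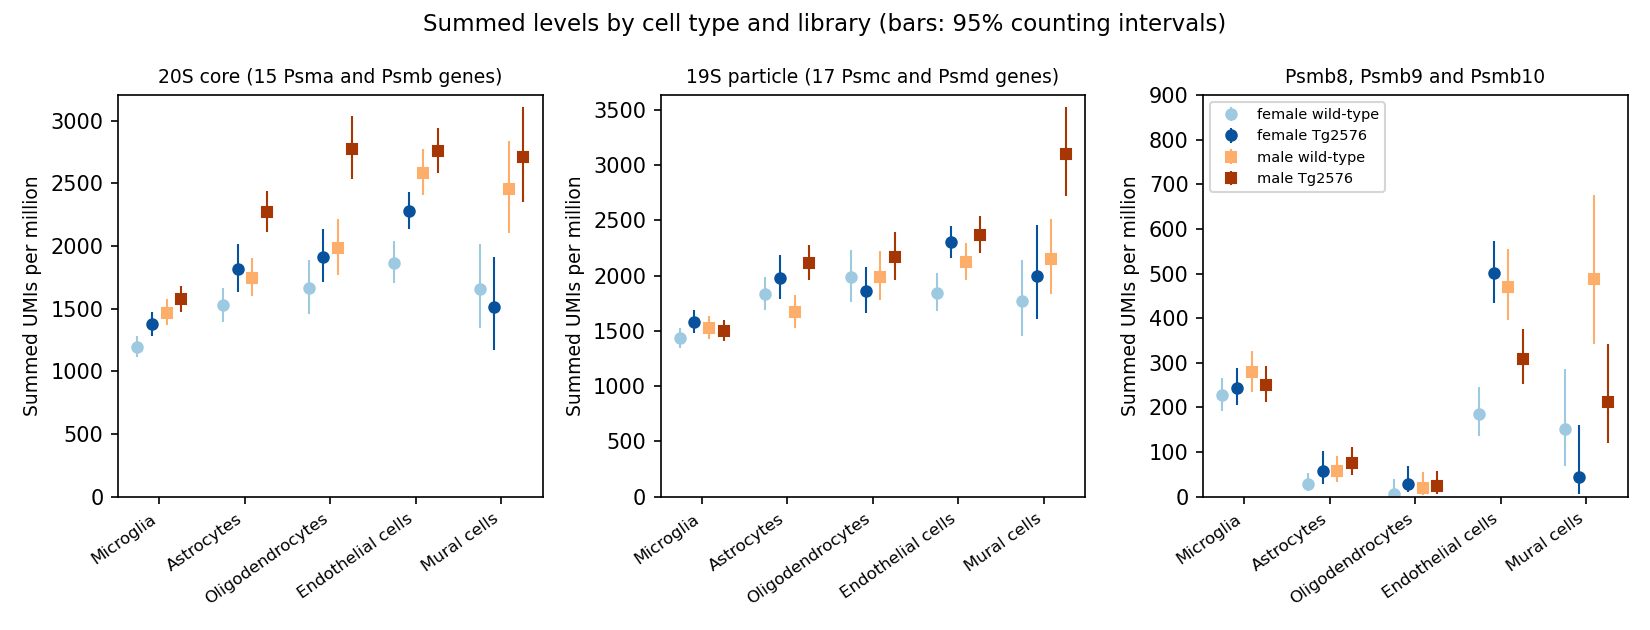
Summed CPM of the 15 genes of the 20S core, of the 17 subunits of the 19S particle and of the 3 inducible catalytic genes in 5 cell types, with a point for each library and its 95% counting interval. Within each library microglia lie lowest in the core and cap panels, while the inducible genes lie at 29.1 or less in oligodendrocytes.

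Astrocytes, which support neurons and take up transmitters, had higher levels of 6 members. Psmd13, a subunit of the 19S lid, was at 81.9 and 62.3 CPM in wild-type and Tg2576 females and 96.6 and 71.4 CPM in wild-type and Tg2576 males, above the 28.4 to 48.4 CPM of microglia (log2 difference from the other types 0.90 ± 0.24, adjusted p = 7.68e-04, edgeR). Psmb5, with the chymotrypsin-like activity, was at 66.2, 67.5, 53.3 and 93.1 CPM in the same order (0.77 ± 0.25, adjusted p = 0.00569). Every astrocyte library lay above the 27.5 to 43.4 CPM of Psmb5 in microglia. Psmb7, with the trypsin-like activity, was at 94.5, 77.8, 99.9 and 109 CPM (0.64 ± 0.22, adjusted p = 0.00868). Its microglial values of 46.3 to 58.3 CPM did not overlap these. Types other than microglia did overlap astrocytes for these genes. Psmd13 reached 92.4 CPM in male Tg2576 mural cells and Psmb5 74.3 CPM in male wild-type endothelial cells. Psmb7 reached 148 CPM in male Tg2576 oligodendrocytes. Psma5, Psmc5 and Psma2 followed with 0.52, 0.43 and 0.42. Without the male Tg2576 library, 3 members were called higher in astrocytes.

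Psma7 went the other way in astrocytes. The highest member overall was at 265 and 353 CPM there in wild-type and Tg2576 females and at 236 and 295 CPM in wild-type and Tg2576 males (-0.52 ± 0.14, adjusted p = 5.25e-04, edgeR). Leaving out the male wild-type or the male Tg2576 library ended the call, with values from -0.65 to -0.36 over the libraries left out. The median difference of the 35 members in astrocytes was 0.19, beside -0.02 for all genes. With library size alone 2 members were higher and 4 lower, where the median was 0.01 for the members and -0.20 for all genes.

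Endothelial cells, which line the vessels and form the blood-brain barrier, had higher levels of 5 members, 4 of them from the alpha ring. Psma6 was at 114 and 157 CPM in wild-type and Tg2576 females and 176 and 236 CPM in wild-type and Tg2576 males (0.73 ± 0.17, adjusted p = 8.78e-05, edgeR), above the 67.1 to 80.1 CPM of microglia. Psma7 was at 442, 629, 689 and 645 CPM in the same order (0.54 ± 0.12, adjusted p = 4.30e-05). All 4 of these values lay above the astrocyte and microglial libraries. Mural cells overlapped endothelial cells for both genes, with 172 CPM of Psma6 and 634 CPM of Psma7 in the male Tg2576 library. Both calls were kept in 16 alternative settings. Psma1 (0.48) and the ATPase Psmc3 (0.40) were called with smaller differences, which did not pass without the female Tg2576 or without the male wild-type library. Psmc3 also did not pass without the male Tg2576 library. The call was lost in 9 of 16 alternative settings for Psma1 and in 10 of 16 for Psmc3, with RLE factors and DESeq2 among them for both. All 8 alpha ring genes had positive values (median 0.32), but 6 of 8 with RLE factors, while the 6 ATPases had a median of 0.00.

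Psma8, the alpha subunit best known from testis, was the remaining endothelial call (1.49 ± 0.48, adjusted p = 0.00675, edgeR), and it rested on few molecules. The endothelial sums held 3 and 5 UMIs in wild-type and Tg2576 females and 13 and 10 UMIs in wild-type and Tg2576 males. In the same order the microglial sums held 6, 3, 8 and 13, the astrocyte sums 2, 0, 2 and 0 and the oligodendrocyte sums 0, 0, 0 and 2. As a level, endothelial cells had 11.8 to 43.9 CPM and microglia 5.16 to 21.7 CPM, which overlap. Mural sums held 1, 2, 0 and 4 UMIs, or up to 52.8 CPM.

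Oligodendrocytes, the cells that form myelin, had higher levels of 5 members. Psmb7 led with 126 and 75.7 CPM in wild-type and Tg2576 females and 106 and 148 CPM in wild-type and Tg2576 males, all above microglia (0.89 ± 0.24, adjusted p = 0.00114, edgeR). Other types overlapped these values, with up to 109 CPM in male Tg2576 astrocytes and 105 CPM in male wild-type endothelial cells. The ATPase Psmc2 was at 119, 175, 131 and 131 CPM (0.54 ± 0.21, adjusted p = 0.0283) and the alpha subunit Psma2 at 112, 221, 212 and 263 CPM in the same order (0.48 ± 0.18, adjusted p = 0.020). Psmc1 and Psmb1 followed with 0.45 and 0.42. Without a library, 1 (male wild-type), 2 (male Tg2576) or 3 members (either female library) were called higher, and with library size alone 1 higher and 1 lower. The median difference of the members was 0.17, beside -0.09 for all genes.

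In mural cells, the smooth muscle cells and pericytes of the vessel wall, 1 member was called. Psmb7 had 4 and 0 UMIs in wild-type and Tg2576 females and 4 and 4 UMIs in wild-type and Tg2576 males (-1.18 ± 0.40, adjusted p = 0.0194, edgeR). The call was lost without any of the last 3 libraries, with values from -1.39 to -0.94 over the libraries left out. The median of the members was -0.07 in mural cells, and it turned to 0.04 with RLE factors and to 0.27 with library size alone, where all genes had 0.18. Over the 5 types, 8 members were called lower in 1 type and higher in another. Psma2, Psma6, Psmb1, Psmb7, Psmc1, Psmc2 and Psmc3 were lower in microglia, and Psma7 was lower in astrocytes and higher in endothelial cells. Each type was set against the mean of the others, so that a low level in 1 type raises the differences of the other types. Such opposed calls are therefore not independent of each other. The share of all genes with opposed calls is not given here, so that their number does not set the members apart.

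The inducible catalytic genes followed another pattern than their constitutive partners. As a share of the UMIs of Psmb5 and Psmb8, Psmb8 made up 79.6% (95% exact binomial interval 75.3% to 83.4%) in microglia, 74.7% (68.9% to 79.9%) in endothelial cells, 68.2% (52.4% to 81.4%) in mural cells, 11.1% (3.11% to 26.1%) in oligodendrocytes and 6.98% (2.60% to 14.6%) in astrocytes, over the 4 libraries together. In microglia the share was 78.8% and 84% in wild-type and Tg2576 females and 80.8% and 74.8% in wild-type and Tg2576 males. The microglial and astrocyte libraries did not overlap. The intervals cover counting error only.

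Psmb9 made up 28.5% of Psmb6 and Psmb9 in microglia, 39.9% in endothelial cells and 0.541% in astrocytes, where 1 UMI of Psmb9 stood beside 184 of Psmb6. Psmb10 made up 61.4% of Psmb7 and Psmb10 in microglia, 58.4% in endothelial cells, 32.9% in astrocytes and 7.50% in oligodendrocytes. Astrocytes thus held Psmb10 at 25.2 to 74.5 CPM with 6 UMIs of Psmb8 in all. All 3 inducible genes were called higher in microglia and in endothelial cells (log2 differences of 2.46 and 2.24 for Psmb8, 1.40 and 3.12 for Psmb9, 1.17 and 1.57 for Psmb10, edgeR). In mural cells Psmb8 had 2 and 0 UMIs in wild-type and Tg2576 females and 23 and 5 UMIs in wild-type and Tg2576 males, so that 1 library gave most of them.

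Part of the endothelial inducible signal came from a cluster of 64 cells led by Gbp8, Tgtp2, Iigp1 and other genes known to respond to interferon. It held 0 and 43 cells from wild-type and Tg2576 females and 20 and 1 cells from the males. In this cluster Psmb8 made up 95.3% of its pair, Psmb9 76% and Psmb10 84.2%, against 67.7%, 31.2% and 54.1% in the larger endothelial cluster. The constitutive members summed to 5063 CPM there in the female Tg2576 library and 3887 CPM in the male wild-type library, beside 4615 and 4919 CPM in the larger cluster of the same libraries, so that they were higher in one library and lower in the other. Without the small cluster 5 members were called higher in endothelial cells and 1 lower.

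**Figure D4:**
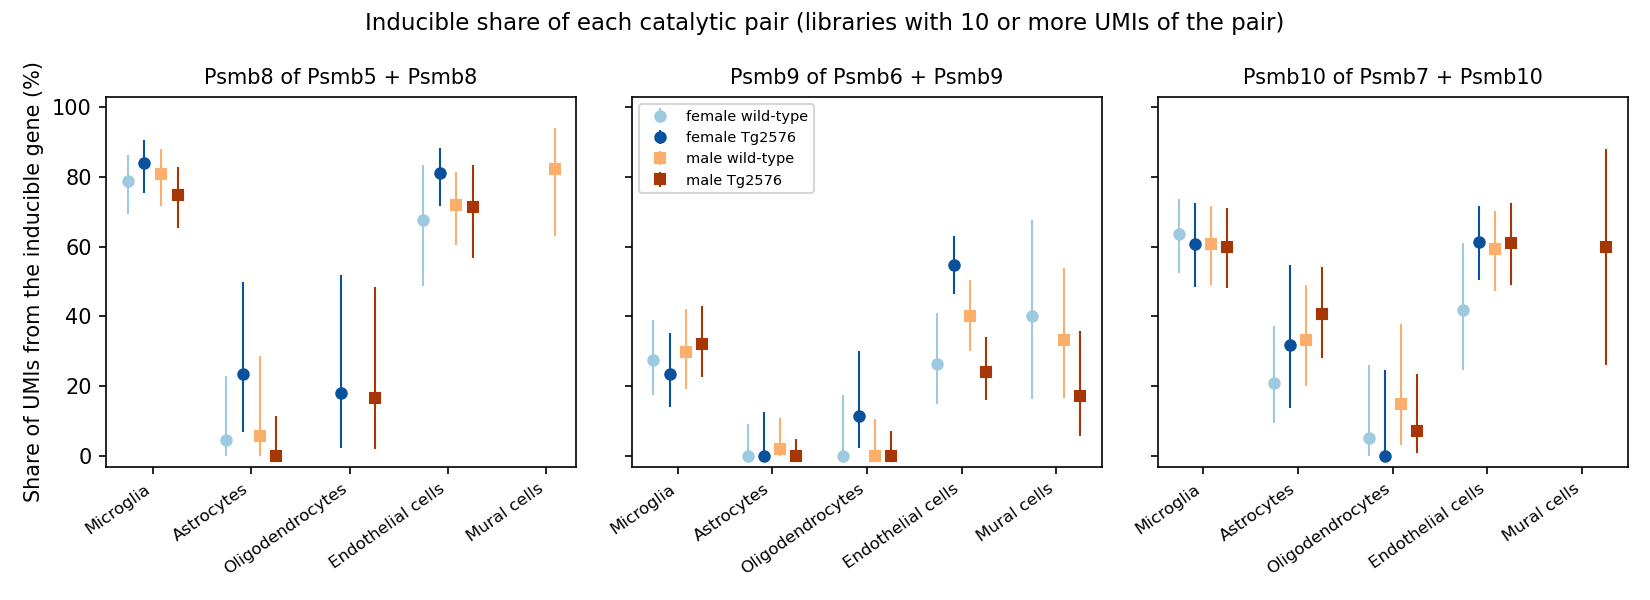
Share of UMIs (%) from the inducible gene in each pair of catalytic genes, by cell type, with a point for each library that has at least 10 UMIs of the pair and its exact 95% binomial interval. Psmb8 shares are high in microglia and endothelial cells in each library, and Psmb9 shares are near 0 in astrocytes.

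Other genes of the pathway were counted in fixed lists, with edgeR's test over all genes. Of all genes tested, 32.4% were called higher and 25.9% lower in microglia, and 28.1% and 21.6% in astrocytes. These shares were 20.4% and 19% in oligodendrocytes, 24.7% and 15.1% in endothelial cells and 14% and 9.19% in mural cells. Of 6 activator and inhibitor genes 4 were tested, and 4 were called higher in microglia, 3 higher in endothelial cells, 3 lower in astrocytes and 2 lower in oligodendrocytes. Psme1, a subunit of the PA28 activator, differed by 1.22 in microglia, 1.37 in endothelial cells and -2.33 in oligodendrocytes. Psme2b, a near copy of Psme2 with which it can share reads, was lower in astrocytes (-1.32). Of 3 of 5 assembly chaperones tested, Pomp, which helps the 20S core to mature, was higher in endothelial cells (1.21) and lower in astrocytes (-0.70). Of 9 of 10 receptors and deubiquitinases tested, Ubqln2, which carries ubiquitinated proteins to the proteasome, was higher in astrocytes (1.39) and oligodendrocytes (0.86) and lower in microglia (-0.88), and Ubqln1 was higher in oligodendrocytes (1.09) and lower in mural cells (-1.15).

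All 5 regulators of proteasome gene expression were tested, and 2 were higher in microglia, Nfe2l2 (NRF2) by 1.77 and Ddi2, a protease that activates NRF1, by 1.35. Of all genes, 32.4% were called higher there. Nfe2l2 was at 542 and 459 CPM in the microglia of wild-type and Tg2576 females and 410.3 and 409 CPM in those of males, and at 270 CPM or less in the other types. Nfe2l1 (NRF1), chosen after its values were seen, was higher in mural (1.31) and endothelial cells (1.26) and lower in astrocytes (-1.34) and oligodendrocytes (-0.91). Of the 5 regulators 3 were called higher in endothelial cells, and 2 were lower in astrocytes and 3 in oligodendrocytes (all genes 24.7%, 21.6% and 19%). Of 4 of 5 genes for ubiquitin activation and segregases tested, Uba1 was higher in oligodendrocytes (0.97) and microglia (0.71) and lower in mural cells (-2.03). The COP9 signalosome resembles the 19S lid in build. Of 7 of its 9 genes tested, Cops4 was higher in microglia (1.43) and lower in endothelial cells (-0.71), Cops7a was higher in astrocytes (0.89), Cops2 was higher in oligodendrocytes (0.65), and the other 6 had negative values in microglia that did not pass.

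The comparison of genotypes asked whether the transgene goes with a change in these genes within a cell type. No member was called in any of the 5 types, in a fit with sex as a covariate (edgeR). This fit leaves 1 residual degree of freedom. In microglia 0 of 34 members were called, in astrocytes 0 of 34, in oligodendrocytes 0 of 27, in endothelial cells 0 of 33 and in mural cells 0 of 12, while 0.654%, 0.132%, 0.227%, 0% and 0% of all genes were. At an unadjusted p under 0.05 there were 1, 2, 3, 1 and 0 members in the same order, and DESeq2 also called 0 in each type. The test of whether the genotype effect differs between cell types called 0 of 35 members, with 1 at an unadjusted p under 0.05, and 0.133% of all genes. The 3 stress genes Atf3 (adjusted p = 0.00173), Hspa1a (adjusted p = 0.00158) and Hspa1b (adjusted p = 0.00362) were among the 12 genes called by edgeR in that test.

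Summed over the members, the counts leaned to the Tg2576 side. The log2 ratio of Tg2576 over wild-type was above 0 in all 10 combinations of sex and cell type. In females it was 0.16 (95% exact interval 0.07 to 0.26) in microglia, 0.18 (0.04 to 0.32) in astrocytes, 0.06 (-0.10 to 0.23) in oligodendrocytes, 0.30 (0.19 to 0.41) in endothelial cells and 0.03 (-0.27 to 0.34) in mural cells. In males it was 0.05 (-0.05 to 0.14), 0.36 (0.24 to 0.48), 0.33 (0.19 to 0.48), 0.12 (0.02 to 0.23) and 0.36 (0.16 to 0.57) in the same order. The intervals cover counting error and not the difference between pools, and the 5 types of a sex come from the same pair of libraries. With no mitochondrial limit the value in female mural cells was -0.04, with a limit of 10% that in female oligodendrocytes was -0.09, and with cells thinned to 500 UMIs the latter was -0.27. Thinning also moved female microglia to 0.0082, female endothelial cells to 0.49 and female mural cells to 0.50.

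Mitochondrial shares moved with these groups. They were lower in male Tg2576 than in male wild-type sums in all 5 types, as in astrocytes with 6.74% and 9.23%. In females they were higher in Tg2576 than in wild-type sums in 4 of 5 types, as in mural cells with 12.9% and 8.94%, and lower in microglia with 6.71% and 6.96%. Without mitochondrial genes and Malat1 in the total, the log2 ratio of the members in male astrocytes was 0.30. The dissociation stress genes moved with genotype in some types as well. In endothelial cells their sum was 8096 and 4222 CPM in wild-type and Tg2576 females and 12808 and 8363 CPM in the males. The genotype log2 fold change was negative for 10 of 10 of them there (median -0.76, 8 at an unadjusted p under 0.05, 0 called, edgeR) and for 9 of 9 in mural cells, also with library size alone or RLE factors. In astrocytes it was positive for 6 of 7 and in oligodendrocytes negative for 7 of 9. In microglia it was mixed, positive for 4 and negative for 6. The part of either in the members' ratios was not tested.

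**Figure D5:**
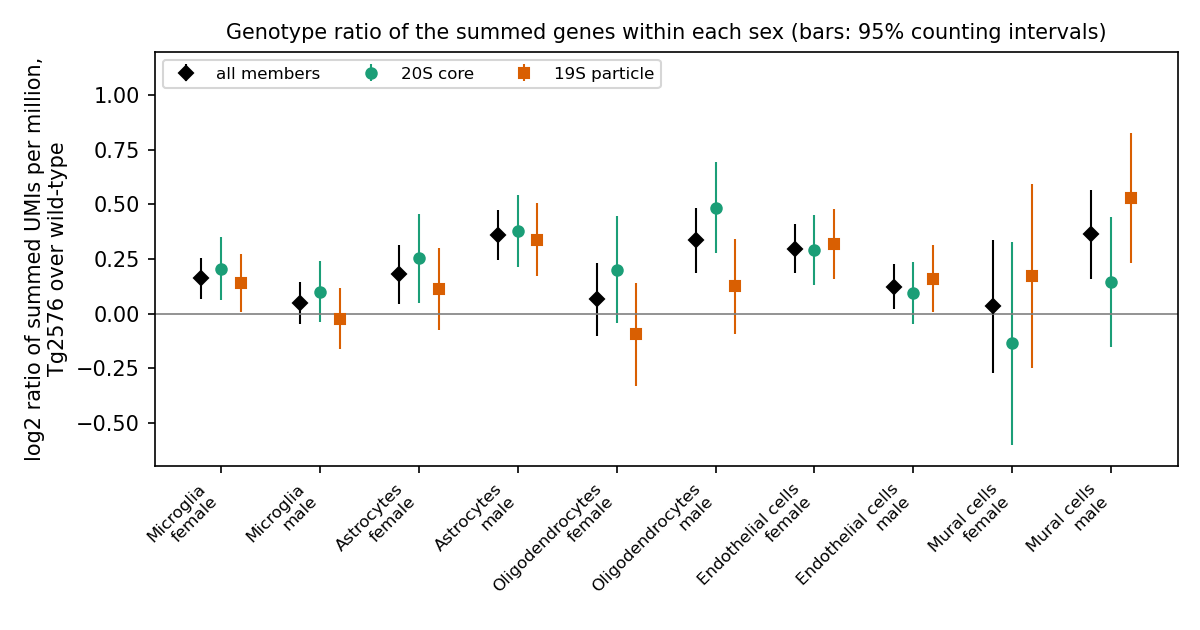
Log2 ratio of summed CPM, Tg2576 over wild-type, for all 37 genes, the 20S core and the 19S particle, by cell type and sex, with 95% counting intervals. The black diamonds (all members) lie above 0 in all 10 places, with intervals that reach 0 in male microglia, female oligodendrocytes and female mural cells.

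Gene by gene, the median genotype log2 fold change of the members was 0.26 in astrocytes (28 of 34 above 0), 0.22 in endothelial cells (23 of 33), 0.26 in mural cells (9 of 12), 0.08 in oligodendrocytes (16 of 27) and -0.01 in microglia (16 of 34), beside medians of all genes between -0.01 and 0.00. With library size alone the microglial median was 0.04. In astrocytes all 7 alpha ring genes and all 6 ATPases tested had positive values, also with library size alone or RLE factors. In oligodendrocytes the genes of the core had a median of 0.34 and the 19S subunits -0.02.

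Psma7 was the only member whose counting intervals excluded 0 on the same side in both sexes, and it did so in oligodendrocytes. That is 1 of 67 pairs of a member and a cell type (1.49%), beside 3.11% of all 8694 pairs of a gene and a cell type, and it is given as a description. It was at 309 CPM there in wild-type and 530 CPM in Tg2576 females, and at 406 CPM in wild-type and 599 CPM in Tg2576 males. The log2 ratios were 0.78 (0.24 to 1.33) in females and 0.56 (0.10 to 1.03) in males. The fit gave 0.65 ± 0.23 (adjusted p = 0.359, edgeR), which does not pass. In microglia (0.42 in females and 0.24 in males) and astrocytes (0.42 and 0.32) Psma7 was also above 0 in both sexes, with intervals that held 0 in male microglia and in the astrocytes of both sexes. In endothelial cells it was 0.51 in females and -0.10 in males, and in mural cells -0.11 and -0.01. The 67 pairs needed at least 20 UMIs in each library of a type. This left 27 members in microglia, 15 in astrocytes, 5 in oligodendrocytes, 20 in endothelial cells and 0 in mural cells. The mural ratios of Psma7 did not reach this floor, with 14 UMIs in the female Tg2576 sum. Intervals on opposite sides of 0 in the sexes were found for 0 of the 67 pairs, beside 1.1% of all pairs.

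The other members with the largest genotype ratios of the same direction in both sexes in microglia, astrocytes and oligodendrocytes had intervals that held 0 in at least one sex. In microglia these were Psma5 (0.29 in females, 0.25 in males) and Psma2 (0.76 and 0.24), in astrocytes the lid subunit Psmd12 (0.53 and 0.37) and the ATPase Psmc2 (0.56 and 0.36), and in oligodendrocytes Psmb1 (0.29 and 0.23). In endothelial cells, for which no members were picked in this way, Psma2 had 0.59 in females and 0.52 in males and Psma6 had 0.46 and 0.43, with intervals that held 0 in females for Psma2 and in both sexes for Psma6. Some of these ratios turned or came near 0 under an alternative. Psmb1 reached -0.52 in females with a mitochondrial limit of 10%. With cells thinned to 500 UMIs Psmb1 was at -0.09 in males, Psma5 at -0.0039 in male microglia and Psmc2 at -0.0032 in male astrocytes, and female astrocytes had 0.013 of Psmc2 at the lowest.

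Between the sexes, 1 member was called. Psma1, of the alpha ring, was at 67.2 CPM in the microglia of wild-type and 61.9 CPM in those of Tg2576 females, and at 102 CPM in wild-type and 127 CPM in Tg2576 males. The sexes did not overlap (male over female, log2 0.80 ± 0.23, adjusted p = 0.0151, edgeR), but without the genotype covariate the call was lost (adjusted p = 0.135), and 6.22% of all genes differed by sex in microglia. Psmb3 (0.70, adjusted p = 0.0576), Psmc6 (-0.67, adjusted p = 0.0583) and Psmd6 (-0.74, adjusted p = 0.0682) came next and did not pass. In astrocytes, oligodendrocytes, endothelial cells and mural cells edgeR called 0 members (3, 3, 0 and 2 at an unadjusted p under 0.05), and 2.52%, 2.2%, 0.144% and 0.0684% of all genes.

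The log2 differences of the beta ring genes, male over female, were positive for 7 of 7 tested in microglia (median 0.30), 6 of 7 in astrocytes (0.24), 6 of 6 in oligodendrocytes (0.44), 7 of 7 in endothelial cells (0.34) and 4 of 4 in mural cells (0.51), with no call. With library size alone they were positive for 7 of 7 in astrocytes and for the same numbers elsewhere. The ATPases had medians of -0.14, -0.27, -0.23, -0.02 and 0.26 in the same types, where the endothelial one turned to 0.07 with library size alone, and all genes tested had medians between 0.00 and 0.02. The alpha ring had medians of 0.19, 0.16, 0.25, 0.23 and 0.74, all positive also with library size alone. Its genes were positive for 6 of 7, 4 of 7, 4 of 6, 6 of 7 and 2 of 2 in the same order. The mural medians thus rest on 2 alpha ring genes and on 3 ATPases. Ubb, which codes for polyubiquitin, was called higher in males in microglia (0.68) and astrocytes (0.76), and Vcp, a segregase that feeds the proteasome, was lower in male microglia (-0.97, edgeR). Of the 10 stress genes, 4 were called higher and 3 lower in male microglia, and 9 of 10 were higher in value in male endothelial cells (7 at an unadjusted p under 0.05, 0 called, edgeR). The mitochondrial share of both male sums was below that of both female sums in all 5 types, as in oligodendrocytes with 6.52% and 4.16% against 9.94% and 10.1%. The part of these in the differences by sex was not tested. Each sex is a pair of pools, and sex cannot be told apart from other differences between them.

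In cell types too small to be tested, the summed members ranged widely. Choroid plexus cells had 5882 and 4507 CPM in wild-type and Tg2576 females and 5889 and 5141 CPM in wild-type and Tg2576 males. In the same order oligodendrocyte precursors had 2632, 2532, 4922 and 4833 CPM and neurons 2611, 1895, 2799 and 4363 CPM. The female Tg2576 precursors rested on 19 and the male wild-type neurons on 12 UMIs of the members. Barcodes with under 200 genes, which were not kept, had 2228, 2097, 2451 and 2700 CPM. Without mitochondrial genes in the total they had 3655 to 3870 CPM, above the 2911 to 3285 CPM of microglia counted in the same way. The part of free RNA in the differences between types was not tested.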

How the data were processed

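Cortical cells of 4 pools of 9 mice were profiled by Drop-seq. The authors deposited UMI counts per gene and barcode, 3000 barcodes per library, and the submitters' processing notes name mm10 and Seurat 3.1.4. The aligner is not given in the sources used here. The members and lists were chosen with earlier results of these data known.

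Barcodes with 200 to 7000 genes and at most 20% mitochondrial UMIs were kept. The 5% limit of the study would have kept 14.5% to 55.6% of the barcodes in that gene range. Cells were clustered in R 4.3.3 with Seurat 5.3.0 and sctransform 0.4.2 (2500 variable genes without the proteasome genes and lists, of which 2478 were used, 19 principal components, resolution 0.5) and named from at least 3 markers at 2-fold. A cluster of 214 cells stayed unnamed. Scrublet (scanpy 1.11.5) marked 92 cells (1.90%), which were kept. Counts were summed per library and type. edgeR 4.0.16 (quasi-likelihood, TMM, filterByExpr) tested each type against the mean of the 4 others with the library as block, genotype with sex as a covariate and sex with genotype as a covariate, with Benjamini-Hochberg adjustment over all genes and a threshold of 0.05. DESeq2 1.42.0 was an alternative. The fits were also run on counts simulated with the same relative spread for every gene, which need not match the spread between pools. The outcome of these runs is not reported here. Counts of ratios within a sex, and the members picked from them, needed 20 UMIs in each library. Intervals are exact, at 95%, and cover counting error only. Python 3.11.15, numpy 2.4.6, pandas 2.3.3, scipy 1.17.1 and matplotlib 3.10.9 were used for the rest. Named with values were the catalytic subunits, the 5 highest and the 5 lowest members, in each type the 3 largest calls in each direction, every member called in a genotype or sex test, the 3 members with the largest genotype ratio of 1 direction in both sexes in microglia, astrocytes and oligodendrocytes, and from each other list the genes called in a genotype test and the 2 largest calls by type. Further genes with values were chosen after their values were seen. Some results of the other lists are not reported here.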

Additional observations from a re-analysis of the deposited data

Results flagged for a closer look

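Psmb11, the thymus-specific catalytic gene, could not be tested, and it drew attention because it had UMIs in Tg2576 libraries and none in the wild-type ones. Over all barcodes it had 10 UMIs in the female Tg2576 library, in 8 barcodes with at most 3 in a barcode, and 2 UMIs in 2 barcodes of the male Tg2576 library. Both wild-type libraries had 0 UMIs, which allows up to 3 counts in each. With 1 library per sex and genotype, this difference was not tested.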

How the results depend on the processing

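Cell types were compared within libraries. No paired analysis of genotype or sex was possible because the labels carry no replicate numbers and each sex and genotype is 1 library. Genotype calls stayed at 0 in all alternatives (14 to 17 per type). Members lower in microglia numbered 11, and 23 with library size alone, 17 with RLE factors, 19 with at least 500 genes per cell, 5 with no filter, 5 thinned to 500 UMIs and 6 to 13 without a library. Members higher in astrocytes numbered 6, and 2 with library size alone, 1 thinned and 3 to 6 without a library, and the 1 lower member became 4 with library size alone, 2 without mitochondrial genes and Malat1, 0 thinned and 0 to 3 without a library. In oligodendrocytes 5 were higher, and 1 with library size alone or no filter, 3 with a mitochondrial limit of 10% or at least 500 genes, 0 thinned and 1 to 3 without a library. None was lower there, but 1 with library size alone, a limit of 10% or at least 500 genes, 2 with doublets left out and 0 to 1 without a library. In endothelial cells 5 were higher, and 8 with library size alone, 3 with RLE factors, no filter, DESeq2, a limit of 10%, a resolution of 1 or doublets left out, 2 thinned and 2 to 5 without a library. None was lower there, but 1 with RLE factors, DESeq2, a limit of 10%, no mitochondrial limit, at least 500 genes, a resolution of 1, doublets left out or without the cluster of 64 cells led by interferon genes, an alternative chosen after seeing the data. The 1 lower member in mural cells became 0 with library size alone or DESeq2 and 0 to 1 without a library. The 1 member that differed by sex in microglia became 0 without the genotype covariate. Thinned to 500 UMIs, the summed log2 ratio was 0.49 in female endothelial cells, 0.01 in female microglia (0.0082), 0.50 in female mural cells and -0.27 in female oligodendrocytes, and Psmc1 in oligodendrocytes turned to -0.015. The microglial sum against the other types was -0.35 with TMM scaling. The cause was not tested for any of these changes. With library size alone the median of all genes moved to -0.16 in microglia, -0.20 in astrocytes and oligodendrocytes, 0.15 in endothelial and 0.18 in mural cells. Of the single genes' tests, 472 stayed on their side of the threshold, 105 lost a call, 7 gained one and 1 called difference changed sign. The 472 include tests without a call whose value changed sign, such as Psmb7 in endothelial cells, from 0.18 to -0.19 at the lowest. Of the single genes' ratios within a sex, which have no test, 77 stayed within the interval and 3 moved beyond it. A mitochondrial limit of 5% left only microglia, so that no comparison of types was possible, mural cells could not be tested with a limit of 10%, at least 500 genes or thinning, and the sex fit could not lose a library. Thinning left out 95 to 303 cells per library.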
